A study of Drosophila melanogaster with 2 samples.

Results

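In whole Drosophila melanogaster embryos, 439 of the 2000 strongest nuclear regions of Hmx-eGFP chromatin immunoprecipitation in replicate 3 had no counterpart among the 4000 strongest nuclear regions of replicate 2. The list of replicate 3 held 29996 nuclear regions in all, those on 2L, 2R, 3L, 3R, 4 and X. The 439 regions, called replicate-3-only regions here, were selected on the signal of both replicates: each ranked in the first 2000 of replicate 3 and overlapped none of the first 4000 of replicate 2 by 1 bp or more. The remaining 1561 of the 2000 are called shared. Signal and rank are therefore described and not tested, whereas place, genes and base composition took no part in the selection.

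Both samples came from embryos of mixed sex aged 0 to 24 h of the strain Hmx-MiMIC-GFP, a single line in which Hmx carries an extra, intronic eGFP exon and so makes an Hmx-GFP fusion protein. Chromatin was fragmented by sonication and precipitated with an antibody described as anti-GFP, although the antibody field names Hmx. The labels number the 2 samples as biological replicates 2 and 3, and both carry the insertion. They form 1 group, so there is no comparison between conditions, and the untagged control alignment was not analysed here. In whole embryos, binding in fewer cells and weaker binding in each cell cannot be told apart.

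Hmx is a homeodomain transcription factor of the NK class, a family that reads A+T-rich DNA and specifies cell types, and Hmx genes are best known for roles in the nervous system and head sense organs. Chromatin immunoprecipitation ranks DNA by how often it is recovered with the tagged protein. Regions near transcription starts in open chromatin are recovered with many different factors. Replicates are compared because a region strong in one library and weak in another is less certain than one strong in both.

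The regions deposited by the authors carried a signal on the caller's own scale and a -log10 q value, with no read counts, so the depth behind each list is unknown. Nearly all regions were of one width: 100% of replicate-3-only regions and 95.1% of shared regions were 430 bp long. The replicate 3 list held 2046 nuclear regions with a q value below 5%, and the replicate 2 list held 4603. What part this difference had in the composition of the 439 regions was not tested. Because signal scales can differ between lists, ranks are set side by side.

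Sequence at the summits of the strongest replicate-3-only regions is shown because A+T-rich stretches under the summit are a feature of these regions. The feature is not particular to them: mean G+C at the summit was 31.9% in replicate-3-only and 31.5% in shared regions. Shown are the 3 strongest at promoters, the 3 strongest in introns and the 2 strongest between genes. Left out were 1 arm whose sequence is not shown here and windows with a UTR base. Each sequence is 101 bp centred on the summit, on the plus strand of dm6 (RefSeq copy of the Release 6 assembly). Capitals mark unbroken runs of 6 or more A or T.
ninaG promoter, chr3R:11421831-11421931: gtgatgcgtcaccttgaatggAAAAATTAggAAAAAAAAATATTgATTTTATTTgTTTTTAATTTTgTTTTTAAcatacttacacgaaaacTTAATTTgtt
ND-SGDH promoter, chr3L:12138653-12138753: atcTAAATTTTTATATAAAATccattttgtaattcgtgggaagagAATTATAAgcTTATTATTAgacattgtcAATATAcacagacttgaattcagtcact
GluProRS promoter, chr3R:23958449-23958549: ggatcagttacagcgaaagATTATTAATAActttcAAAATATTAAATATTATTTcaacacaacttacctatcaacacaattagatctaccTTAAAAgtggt
nAChRalpha3 intron, chrX:8294454-8294554: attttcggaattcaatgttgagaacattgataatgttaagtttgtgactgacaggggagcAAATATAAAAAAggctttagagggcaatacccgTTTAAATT
Trl intron, chr3L:14760375-14760475: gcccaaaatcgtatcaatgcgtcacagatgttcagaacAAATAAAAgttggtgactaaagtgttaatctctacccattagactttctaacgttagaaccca
Atg1 intron, chr3L:12803724-12803824: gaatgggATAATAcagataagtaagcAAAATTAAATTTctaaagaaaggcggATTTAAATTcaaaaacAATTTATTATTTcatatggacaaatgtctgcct
intergenic, nearest Marf1, chr2L:22281795-22281895: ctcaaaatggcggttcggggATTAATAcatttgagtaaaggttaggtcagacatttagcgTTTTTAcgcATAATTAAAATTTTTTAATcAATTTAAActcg
intergenic, nearest Srp54k, chr3L:5155083-5155183: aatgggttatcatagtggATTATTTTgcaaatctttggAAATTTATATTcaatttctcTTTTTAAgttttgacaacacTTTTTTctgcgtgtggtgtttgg

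The ninaG promoter window had 55 of its 101 bases in such runs and a G+C content of 22.8%, whereas the Trl window had 8 bases in 1 run and a G+C content of 37.6%. The longest runs, of 19 bases, stood in the GluProRS window and the intergenic window nearest Marf1. The nAChRalpha3 window had 20 bases in runs, the second smallest number of the 8.

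The replicate-3-only regions lay mostly at the weaker end of the 2000. They made up 5 of the 500 strongest, 53 of ranks 501 to 1000, 148 of the 500 after those and 233 of the last 500. Their signal ran from 36.3 to 129.4 with a median of 40.02, against 36.3 to 455.0 with a median of 52.5 for shared regions. The q value had a median of 2.49% in replicate-3-only regions and 0.429% in shared regions. The 2000 regions that ranked next in replicate 3, called the next ranks below, had signals of 28.6 to 36.3. Their q value ran from 4.70 to 20.4% with a median of 12.9%, so most lay above 5%.

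**Figure D1:**
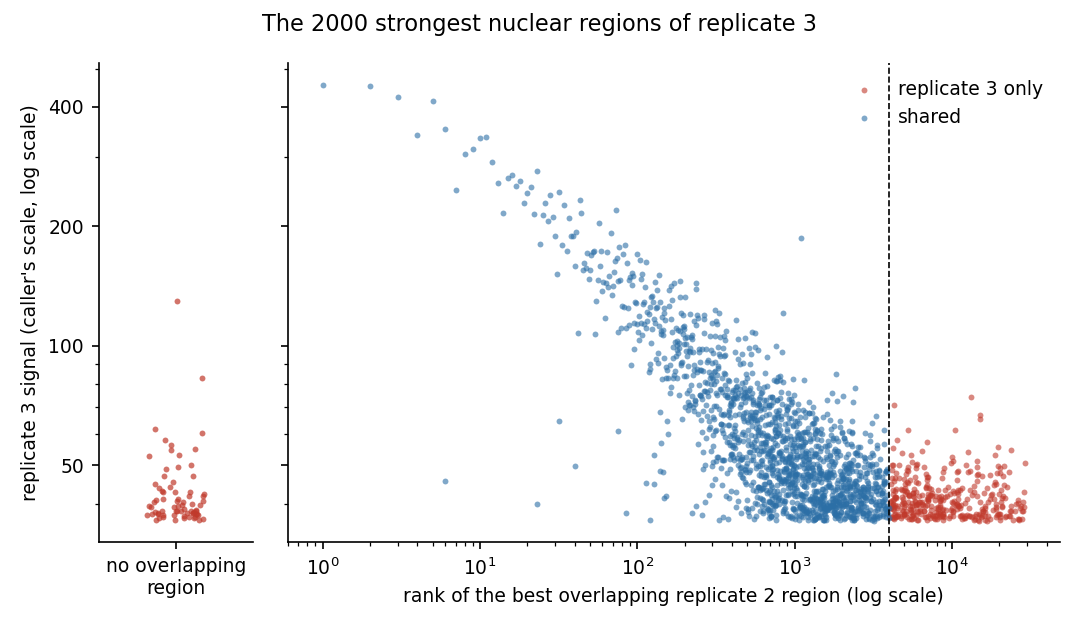
Each point is 1 of the 2000 strongest nuclear regions of replicate 3, with its signal on a log axis against the rank of its best overlapping region in replicate 2, also on a log axis; the dashed line marks rank 4000. Replicate-3-only regions (red) lie right of the line or, for 73 of them, in the separate column at the left with no overlapping replicate 2 region, and all but 5 rank below 500 in replicate 3.

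Most replicate-3-only regions overlapped a replicate 2 region of lower rank. The replicate 2 list takes in background as well as peaks, with 4603 nuclear regions at a q value below 5%. An overlap at a low rank is therefore not evidence of binding, and the overlap expected of arbitrary regions was not computed. An overlapping replicate 2 region existed for 366 of the 439, at ranks from 4018 to 29041 and a median rank of 8191.5. Of these, 178 had a best rank of 4001 to 8000, 114 of 8001 to 16000 and 74 above 16000. The other 73 (16.6%) overlapped no replicate 2 region of any rank. The median distance from a summit to the nearest replicate 2 summit was 69 bp for replicate-3-only regions and 30 bp for shared regions. In the list of both replicates pooled, replicate-3-only regions had a median rank of 2747.5 and shared regions one of 753. The authors' set passing the irreproducible discovery rate procedure overlapped 22 replicate-3-only regions (5.01%, 95% Wilson interval 3.33 to 7.47%) and 1386 shared regions (88.8%). The distances, the pooled ranks and this set all draw on the replicates that the rule used. Their differences between the 2 kinds of region follow in part from the selection and are only described. All intervals given here cover counting error only.

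The region near the ninaG start stood apart from the rest. ninaG encodes an oxidoreductase of the eye needed to make the visual chromophore. Its region, chr3R:11421666-11422095, had a signal of 129.4 and rank 102 in replicate 3 and no region in replicate 2, whose nearest summit lay 11664 bp away. It still ranked 194 in the pooled list and belonged to the set passing the irreproducible discovery rate procedure. The summit lay 188 bp upstream of the ninaG start, and G+C was 22.8% at the summit and 50.5% in the windows 300 bp to either side. It also lay within 1 kb upstream of a second gene, Sptz, and ninaG is named only as the nearest start. No other replicate-3-only region had a signal above 83.2.

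The second strongest lay in an intron of nAChRalpha3, which encodes a subunit of the nicotinic acetylcholine receptor. Here 2 replicate-3-only regions overlapped each other, chrX:8294289-8294718 with signal 83.2 at rank 281 and chrX:8294504-8294933 with signal 54.7 at rank 725, and neither overlapped a replicate 2 region. A shared summit lay 503 bp from the first and 288 bp from the second. They are neighbouring calls within 1 locus and not separate occurrences, and both summits lay inside 1 annotated transposable element.

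Promoters whose nearest start was that of a housekeeping gene, and a regulator of chromatin, were among the next. The ND-SGDH summit also lay within 1 kb upstream of RhoGAP68F, and the GluProRS summit within 1 kb upstream of AP-1sigma. The region at chr3L:12138488-12138917, 119 bp upstream of the start of ND-SGDH, a subunit of respiratory complex I, had signal 70.8 and rank 421 in replicate 3, and signal 28.5 and rank 4283 in replicate 2. GluProRS, which charges tRNA with glutamate and proline, had a region 108 bp upstream of its start (chr3R:23958284-23958713) with signal 61.6 and rank 555 in replicate 3 and no overlapping region in replicate 2 or in the pooled list. Trl, the gene of the GAGA factor, had an intronic region at chr3L:14760210-14760639 with signal 66.8 and rank 475 in replicate 3, and signal 16.9 and rank 15096 in replicate 2. That region lay 889 bp from a shared summit, and the Trl locus held 3 shared summits in all. An intron of Atg1, the kinase that starts autophagy, held a region with signal 61.3 and rank 558 in replicate 3, and signal 20.01 and rank 10421 in replicate 2. An intron of Ptp61F, a tyrosine phosphatase that dampens JAK/STAT signalling, held one with signal 57.8 and rank 650 in replicate 3, and the nearest replicate 2 summit was 21426 bp away.

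The other 8 of the 15 strongest regions were of mixed place. Between genes, the region nearest Marf1, an oocyte regulator of mRNA stability, had signal 74.4 in replicate 3 and 18.0 in replicate 2. Near CG44439 the intergenic region had signal 65.3 in replicate 3 and 16.8 in replicate 2. The region nearest Srp54k, a subunit of the signal recognition particle, had signal 60.2 in replicate 3 and none in replicate 2. Thus 2 of these 3 were listed in replicate 2, at ranks 13255 and 15187. The region nearest lncRNA:CR45249 had signal 58.0 in replicate 3 and 28.1 in replicate 2. At the starts of Sobp and lncRNA:CR44589, regions had signals of 61.5 and 57.2 in replicate 3, and of 26.3 and 23.7 in replicate 2. The 3′ UTR of CG5895 held a region of signal 56.2 with none in replicate 2, and an intron of CG42747 held one of signal 55.5 in replicate 3 and 14.8 in replicate 2. All 15 had either no replicate 2 region or one of signal 28.5 or less. The rule left out any region that overlapped one of the strongest replicate 2 regions. Low replicate 2 signal in the 15 therefore follows from the selection and is only described.

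Near the edges of the rule, values ran on without a gap. The 3 weakest replicate-3-only regions, nearest the start of Toll-6 (a Toll-family receptor), in the 3′ UTR of Mad (the SMAD of BMP signalling) and in an intron of rhea (talin), all had a signal of 36.3, at ranks 1996, 1998 and 1999. Just outside, regions in an intron of jigr1, near lncRNA:CR45246 and in the 3′ UTR of pigs ranked 2001, 2002 and 2004 with signals of 36.3, 36.3 and 36.2. On the side of replicate 2, the regions of Atg13, CG9837 and Cyp316a1 had replicate 2 ranks of 4018, 4020 and 4073. The shared regions of tna, yin and CG14130 had replicate 2 ranks of 3986, 3984 and 3926.

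Promoters were a smaller share of replicate-3-only regions than of shared regions. A summit within 500 bp of an annotated transcription start was found in 144 of 439 replicate-3-only regions (32.8%, 28.6 to 37.3%), against 920 of 1561 shared regions (58.9%, 56.5 to 61.4%). The difference was -26.1 percentage points, with a 95% Newcombe interval of -31.0 to -21.0. The next ranks had a promoter share of 31.0%, which differed from that of the replicate-3-only regions by 1.80 points (-2.90 to 6.74), an interval that includes 0. Among the weaker 1000 of the 2000 regions, where 381 of the 439 lay, the shares were 33.1% in replicate-3-only and 54.9% in shared regions. Regions of 1 library are not replicates, and the intervals say nothing of how another pair of libraries would divide.

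Introns and intergenic DNA held most of the rest. Summits in introns made up 187 of 439 replicate-3-only regions (42.6%) and 465 of 1561 shared regions (29.8%), a difference of 12.8 points (7.71 to 18.0). Intergenic summits made up 15.9% of replicate-3-only and 8.33% of shared regions, a difference of 7.62 points (4.16 to 11.5). The 3′ UTR held 27 replicate-3-only summits (6.15%) and 20 shared summits (1.28%), a difference of 4.87 points (2.86 to 7.56). Coding exons held 6 replicate-3-only and 3 shared summits, 5′ UTRs beyond promoters held 4 replicate-3-only and 7 shared summits, and non-coding exons held 1 replicate-3-only and 16 shared summits. In the next ranks the intron, intergenic and 3′ UTR shares were 42.7%, 15.85% and 7.95%, and the intervals of their differences from the replicate-3-only regions all included 0.

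**Figure D2:**
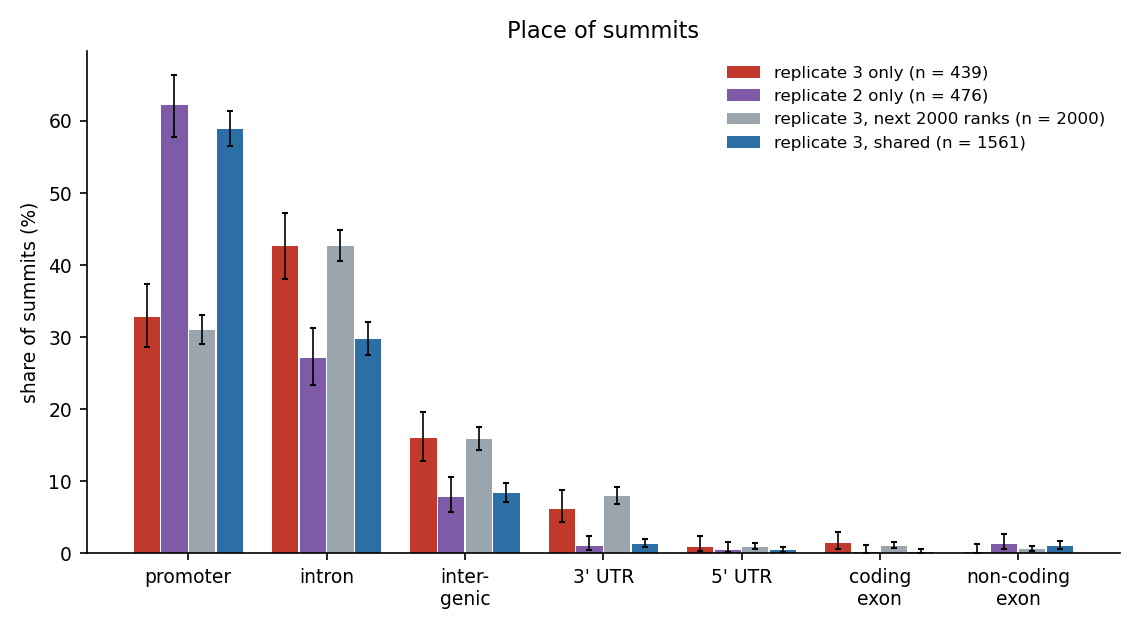
Bars give the share of summits in each place, in percent, with 95% Wilson intervals as error bars, for replicate-3-only regions, replicate-2-only regions, the next ranks of replicate 3 and shared regions. The replicate-3-only promoter share of 32.8% stands beside 31.0% in the next ranks and below the 62.2% and 58.9% of replicate-2-only and shared regions.

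With promoters set aside, the 3′ UTR remained a larger share of replicate-3-only regions than of shared regions, but not than of the next ranks. Of the 295 replicate-3-only summits outside promoters, 9.15% (6.37 to 13.0%) lay in a 3′ UTR, against 3.12% (2.03 to 4.77%) of 641 shared summits. Introns held 63.4% of those replicate-3-only summits and 72.5% of those shared summits. Of the 1380 summits of the next ranks outside promoters, 11.5% (9.94 to 13.3%) lay in a 3′ UTR and 61.9% in introns. The strongest 3′ UTR regions, named after their values were seen, included those of CG5895, of Rtnl1, a reticulon of the endoplasmic reticulum, of Myc, the growth regulator, and of NetB, a netrin. Myc had signal 41.9 and rank 1371 in replicate 3, and signal 24.7 and rank 6183 in replicate 2. Rtnl1 had signal 42.5 and rank 1313 in replicate 3, and signal 20.1 and rank 10277 in replicate 2.

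How weak a region was in replicate 2 did not order the promoter share clearly. It was 34.2% (24.4 to 45.7%) in the 73 regions with no replicate 2 region. In those of replicate 2 ranks 4001 to 8000, 8001 to 16000 and above 16000 it was 38.2%, 28.1% and 25.7%, with overlapping intervals. The 3′ UTR share was 11.0% (5.66 to 20.2%) in the 73 without a replicate 2 region and 5.19% (3.35 to 7.97%) in the 366 with one, also with overlapping intervals.

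At protein-coding promoters, replicate-3-only summits less often had divergent coding starts within 500 bp. Of 133 such summits, 22 (16.5%, 11.2 to 23.8%) had coding starts on both strands pointing away from each other within 500 bp, against 339 of 873 shared summits (38.8%, 35.7 to 42.1%). The difference was -22.3 points (-28.6 to -14.4). In the next ranks the share was 24.7%, and the difference of the replicate-3-only share from it was -8.15 points (-14.7 to -0.154). The summit was upstream of the nearest coding start in 78.2% (70.4 to 84.4%) of replicate-3-only and 84.5% (82.0 to 86.8%) of shared promoter summits. The median position was 166 bp upstream in replicate-3-only and 134 bp upstream in shared regions.

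The X chromosome held a smaller share of replicate-3-only than of shared regions, and chromosome 4 a larger one. On X lay 39 of 439 (8.88%, 6.57 to 11.9%), against 293 of 1561 shared regions (18.8%, 16.9 to 20.8%), a difference of -9.89 points (-13.0 to -6.33). X makes up 17.6% of the non-N bases of the arms used. In the next ranks the X share was 11.9%, and replicate-3-only minus next ranks was -3.02 points (-5.77 to 0.30). Chromosome 4 held 10 replicate-3-only regions (2.28%, 1.24 to 4.14%) and 5 shared regions (0.320%, 0.137 to 0.748%), with 0.996% of the bases. The chromosome 4 share was 3.00% in the next ranks and 2.25% in the ranks after them, and replicate-3-only minus next ranks was -0.72 points (-2.06 to 1.26). Among the weaker 1000 of the 2000 alone, the X share was 8.40% in replicate-3-only and 17.8% in shared regions. The other 4 arms differed between replicate-3-only and shared regions by no more than 3.84 points, and each of these intervals included 0.

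**Figure D3:**
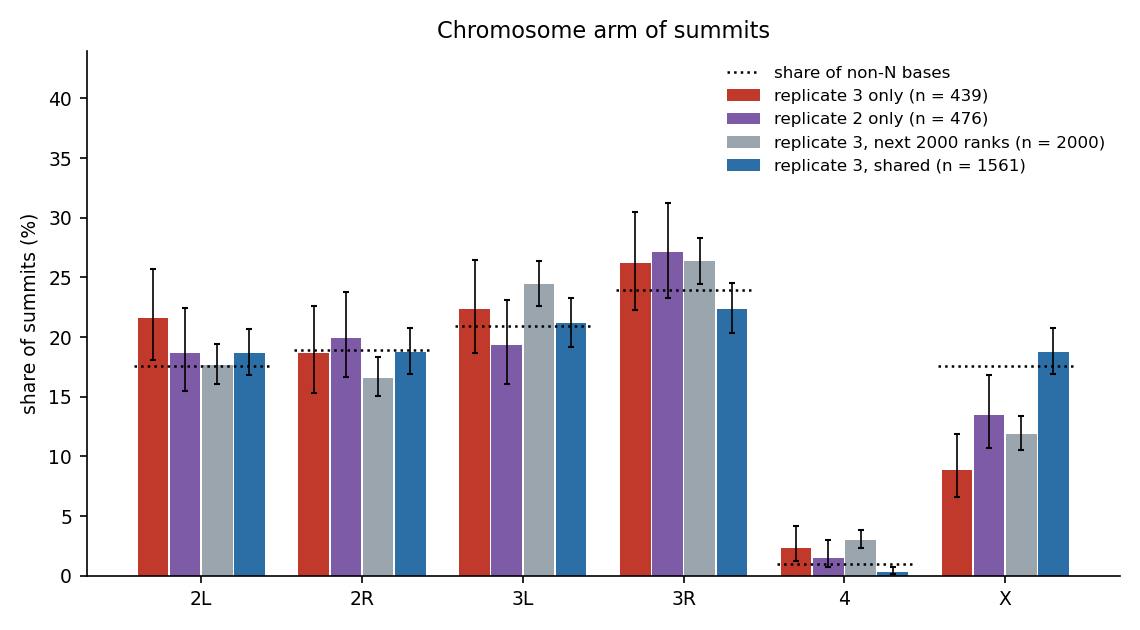
Bars give the share of summits on each chromosome arm, in percent, with 95% Wilson intervals, for the same groups of regions, and dotted lines give each arm's share of non-N bases. On X the replicate-3-only bar, at 8.88%, stands below the shared bar at 18.8% and the dotted line at 17.6%.

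The regions on chromosome 4, described because they are so few and after their values were seen, included those at or near ND-49, PIP4K, CG32017, pan, dati, Eph, ci, Ank and gw. At pan, the TCF factor of Wnt signalling, the summit lay 70 bp upstream of a start, with signal 41.6 and rank 1399 in replicate 3 and signal 23.5 and rank 7028 in replicate 2. Upstream of ci, the transcription factor of Hedgehog signalling, a region 661 bp from the start had signal 39.1 in replicate 3 and 29.1 in replicate 2, just past the limit at replicate 2 rank 4078. In Eph, an axon guidance receptor, the region had signal 39.9 in replicate 3 and 12.8 in replicate 2. Replicate 3 signal on chromosome 4 ran from 37.3 to 45.9.

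Base composition differed less at the summit than beside it. The 101 bp at the summit had a G+C content of 31.9 ± 6.43% in replicate-3-only regions (SD, n = 439 regions) and 31.5 ± 6.98% in shared regions (SD, n = 1561), a difference of 0.48 points (95% interval -0.21 to 1.18). Under 5 other settings, from 0.66 to 1.82 points, the interval of this difference lay above 0. It lay below 0 over 100 bp either side of the summit (-0.87 points, -1.40 to -0.35) and over the whole region (-1.84 points, -2.32 to -1.37). In the weaker 1000 of the 2000 the difference was -0.24 points (-1.09 to 0.62). In windows of 101 bp 300 bp to either side, G+C was 40.1 ± 7.45% in replicate-3-only and 43.7 ± 7.21% in shared regions. This flank difference was -3.61 points (-4.39 to -2.83). That difference was -3.14 points (-4.37 to -1.91) among promoter summits alone and -3.55 points (-4.58 to -2.51) among the others. Among the weaker 1000 of the 2000 it was -3.36 points (-4.29 to -2.44). Against the next ranks, whose flanks averaged 40.2%, it was -0.14 points (-0.90 to 0.63). The mean at the summit less that of its flanks was -8.16 points in replicate-3-only regions and -12.3 points in shared regions.

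**Figure D4:**
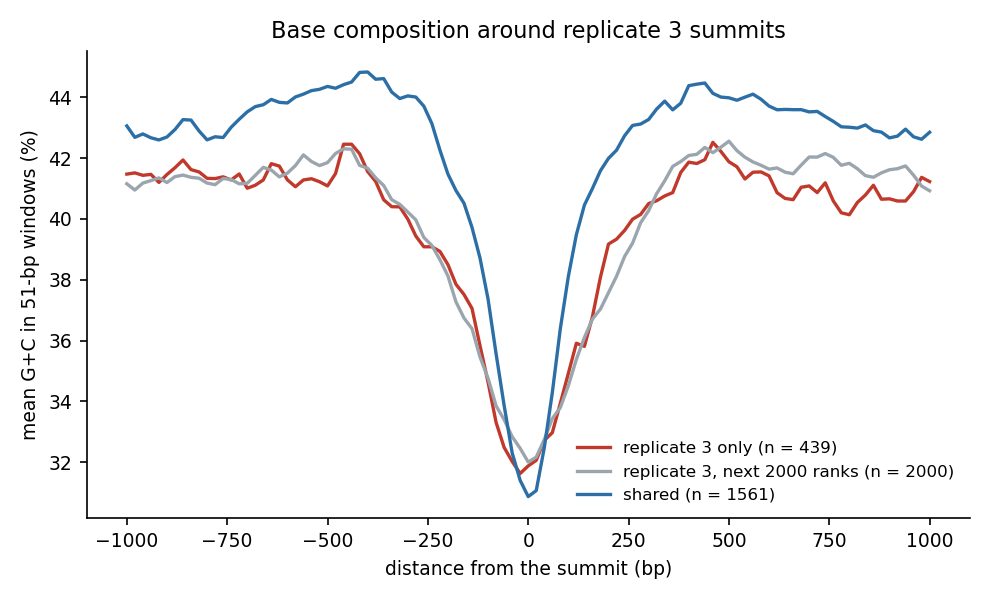
Lines give mean G+C in percent in 51-bp windows at distances of up to 1000 bp from the summit for replicate-3-only regions, the next ranks of replicate 3 and shared regions. All 3 lines dip at the summit, and away from it the replicate-3-only line follows that of the next ranks and stays below that of shared regions.

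Short motifs were counted in the 101 bp at each summit on both strands, and most differed little between the sets. TTAAAA stood in 32.1% of replicate-3-only and 38.9% of shared windows, a difference of -6.77 points (-11.6 to -1.67), against 29.6% of all replicate 3 nuclear windows and 18.7% of the flanking windows of replicate-3-only regions. This was the only one of 16 motifs whose interval left out 0. AAAAAA stood in 31.9% of replicate-3-only and 30.7% of shared windows. The homeodomain core TAATTA stood in 9.79% of replicate-3-only and 11.0% of shared windows, and TAATTG in 13.7% of replicate-3-only and 12.4% of shared windows. For all replicate 3 windows the shares of TAATTA and TAATTG were 10.5% and 13.1%. The NK-class 6-mers TAAGTG and CAAGTG stood in 5.69% and 4.78% of replicate-3-only windows, in 6.28% and 4.10% of shared windows and in 6.16% and 5.10% of all windows. These motifs overlap one another in part, TTAAAA with A+T runs above all, and a match is a description and not a binding site.

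TATCGATA, the DNA replication-related element of housekeeping promoters, stood in 8 replicate-3-only windows (1.82%, 0.926 to 3.55%) and 15 shared windows (0.961%, 0.583 to 1.58%), against 0.657% of all windows. The GAGAGA motif, bound by the protein of Trl, stood in 2.28% of replicate-3-only and 3.59% of shared windows, against 3.01% of all windows. AGATAA, bound by zinc finger factors such as pannier, stood in 10.02% of replicate-3-only and 8.58% of shared windows, against 7.84% of all. Over 50% of the region was masked as repeat, written in lower case in the RefSeq genome, in 9 replicate-3-only regions (2.05%, 1.08 to 3.85%) and 7 shared regions (0.448%, 0.217 to 0.923%), against 1.70% of the next ranks. Summits inside annotated transposable elements numbered 6 in replicate-3-only regions (1.37%, 0.628 to 2.95%) and 8 in shared regions (0.512%, 0.260 to 1.01%), against 1.15% of the next ranks. They included both nAChRalpha3 summits and the one nearest Marf1, and the part of repeated sequence in these signals was not tested.

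The median distance of a replicate-3-only summit to the nearest shared summit was 22389 bp, and 19 lay within 1 kb of one. Only 6 of the 439 lay more than 10 kb from any replicate 2 summit. None of the 1561 shared regions could, as each overlapped a replicate 2 region by the rule. Besides ninaG and the Ptp61F intron, the 6 were the starts of asp, a spindle protein, and Mal-A5, a maltase, an intron of Dh44-R2, a neuropeptide receptor, and an intergenic region on X whose nearest start was that of CG14621. The 6 were named after their values were seen.

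A gene was counted when a summit fell in its body or within 1 kb upstream. Of 13945 protein-coding genes, 405 (2.9%) had a replicate-3-only summit and 1645 (11.8%) had a shared summit. Both kinds were found at 128 genes, which are 31.6% of the first set and 7.78% of the second. In all, 368 of the 439 regions fell in a gene so defined, and 71 in none. Genes with a replicate-3-only summit had a median locus length of 13.7 kb, against 4.55 kb for those with a shared summit and 2.17 kb for all protein-coding genes. Long genes offer more bases for a summit to fall in, and the gene counts below are not corrected for length.

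Only 28 genes held more than 1 replicate-3-only summit, and the leading ones were long. CG1677, spanning 124.7 kb with other genes inside it, held 4, with replicate 3 signals of 49.2, 48.4, 42.2 and 38.7 and replicate 2 signals of 25.1, 19.6, 26.2 and 28.7. The insulin receptor gene InR held 3, all intronic, with signals of 38.4, 37.2 and 36.8 in replicate 3; in replicate 2 the first and second had signals of 13.4 and 16.4 and the other no region. The TSC22-family gene bun and the nuclear regulator sbb also held 3 each. Among those with 2 were nAChRalpha3, CG42747, shn, Ptpmeg (a tyrosine phosphatase), ths (an FGF ligand) and Doa (a protein kinase). At ths the signals were 47.4 and 37.2 in replicate 3, and 17.1 and 18.0 in replicate 2, and no shared summit fell there. The sbb and shn loci also held 6 and 7 shared summits.

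Genes of cell signalling and of axon guidance are given from lists chosen with earlier results of these data known, against the 2.9% and 11.8% of all genes. Of 25 axon guidance genes, 7 (28.0%) had a replicate-3-only summit and 7 had a shared one, 3 of them both, with a median locus of 35.1 kb over the list. Ligands came first: Sema1a, a transmembrane semaphorin, had a region of signal 42.8 in replicate 3 and none in replicate 2. The netrin genes NetA and NetB had signals of 41.8 and 41.0 in replicate 3, and 22.9 and 23.6 in replicate 2. At sli, the midline repellent, signal was 41.5 in replicate 3 and 28.4 in replicate 2. Among receptors and adhesion proteins, the netrin receptor fra had signal 38.7 in replicate 3 and 22.2 in replicate 2, and Fas3 had signal 38.7 in replicate 3 and none in replicate 2. Eph, described with chromosome 4, was the last of the 7, and sli, Fas3 and fra also held a shared summit. The values of fra, Fas3 and Eph, beyond the first 4 by signal, were chosen after they were seen.

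The BMP pathway had 4 of 17 genes (23.5%) with a replicate-3-only summit and 7 with a shared one. The ligand gene dpp had an intronic region of signal 50.4 and rank 875 in replicate 3, and signal 24.98 and rank 6010 in replicate 2. The receptor gene put had signal 40.9 in replicate 3 and 23.4 in replicate 2. Mad had a second, intronic region of signal 45.4 in replicate 3 and 15.2 in replicate 2. At shn, a zinc finger protein that acts downstream of the pathway, the stronger of its 2 regions had signal 55.2 in replicate 3 and 28.6 in replicate 2. Of these 4 genes, only shn also held shared summits.

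Other signalling lists held 0 to 3 such genes each, beside the 2.9% of all genes with a replicate-3-only summit and 11.8% with a shared one. In the ecdysone response, 3 of 13 genes (23.1%) had a replicate-3-only summit, Hr4, Eip75B and the receptor EcR, against 6 with a shared one, over a list whose median locus was 50.7 kb. The Wnt pathway had 2 of 16, the receptor fz and pan, against 4. The EGFR and Ras list had 2 of 21, S, which helps process the ligand, and pnt, the ETS-family effector, against 10. Hedgehog had ci alone of 11 against 0, Notch numb alone of 15 against 4, JAK/STAT Ptp61F alone of 9 against 1, and insulin and TOR InR alone of 16 against 7. The Hippo list had 0 of 15 against 5.

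Homeobox and other regulator lists held 0 to 3 genes with a replicate-3-only summit, beside the 2.9% of all genes. The NK-class list, to which Hmx belongs, had 1 of 13 genes, tin, the heart factor, and 1 with a shared summit; the tin region lay 224 bp upstream of its start, with signal 37.4 in replicate 3 and 25.5 in replicate 2. Of 8 Hox genes Ubx alone had one, in its 3′ UTR, with signal 37.4 in replicate 3 and 22.9 in replicate 2. Of 42 other homeobox genes 3 had one, zfh1, mirr and the Hox cofactor hth, against 2 with a shared summit. In the GAGA and insulator list 2 of 15 had one, Trl and psq, against 7, and in the Polycomb and trithorax list ph-d alone of 20, against 6. The forkhead list had CHES-1-like and slp2 of 14, against 2, and 0 of 15 gap and pair-rule genes had either kind.

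Tissue and cell lists held 1 to 3 such genes each, or 4.55 to 12.5% of a list. Of all protein-coding genes, 2.9% had a replicate-3-only and 11.8% a shared summit. The median locus ran from 2.82 kb in the proneural and neuroblast list to 30.6 kb in the muscle list, against 2.17 kb for all genes. These shares are not corrected for length. The actin list had 3 of 24, sqh, capu and Moe, against 5 with a shared summit. Muscle had kirre and Tm1 of 20, against 4, and polarity and trachea had aPKC and rib of 19, against 8. The cell cycle list had BubR1 and E2f1 of 19, against 5. The neuronal list had Rbp9 alone of 19, against 2, and the proneural and neuroblast list brat alone of 22, against 3. At brat, a translational repressor that limits neuroblast growth, the region had signal 53.0 and rank 783 in replicate 3, and signal 15.2 and rank 18682 in replicate 2.

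Lists of ribosomal, proteasome, heat shock and chemoreceptor genes held 0 to 2 genes with a replicate-3-only summit. Of 93 cytoplasmic ribosomal protein genes, 2 (2.15%) had a replicate-3-only summit, RpLP2 and RpL12, against 21 (22.6%) with a shared one. Of 73 mitochondrial ribosomal protein genes, mRpS22 alone (1.37%) had one, against 11 (15.1%). The proteasome list had Prosbeta5R2 alone of 48, against 2, heat shock genes had 0 of 12, against 4, and 0 of 179 chemoreceptor genes had either. The ribosomal and proteasome lists hold short genes, with median loci of 0.909 to 1.38 kb. The share with a replicate-3-only summit was 1.37 to 2.15% in these 3 lists, beside the 2.9% of all genes.

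**Figure D5:**
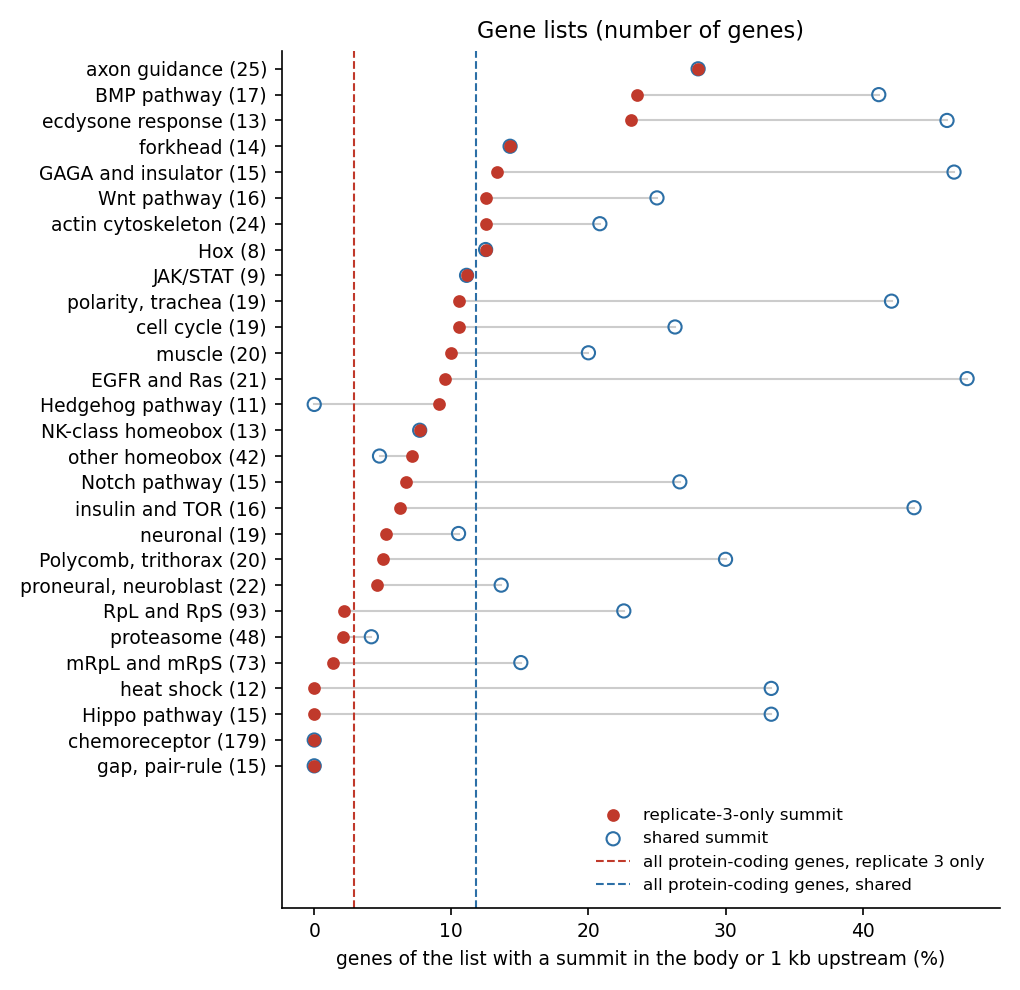
Points give the percentage of genes in each of 28 lists with a replicate-3-only summit (filled red) or a shared summit (open blue) in the gene body or 1 kb upstream, with the list size in brackets; dashed lines give the same for all 13945 protein-coding genes. Axon guidance, BMP and ecdysone genes have the highest replicate-3-only shares, at 28.0%, 23.5% and 23.1%, and the ribosomal, proteasome, heat shock, Hippo, chemoreceptor and gap lists lie below the 2.9% line.

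The regions found by the opposite rule were unlike the replicate-3-only regions. Of the 2000 strongest nuclear regions of replicate 2, 476 overlapped none of the 4000 strongest of replicate 3. The promoter share was 32.8% in replicate-3-only and 62.2% (57.7 to 66.4%) in replicate-2-only regions, a difference of -29.4 points (-35.4 to -23.0). The replicate-2-only share was near the 61.1% of the shared regions of replicate 2 and above the 43.4% of the next 2000 ranks there. The replicate-3-only share was near that of its own next ranks. The lists differ in strength: 4603 nuclear regions of replicate 2 had a q value below 5%, against 2046 of replicate 3. The next ranks of replicate 3, with a median q value of 12.9%, are ranks 2001 to 4000 of the list that the opposite rule used. What part this difference in list strength had in the contrast was not tested. Flanking G+C was 40.1% in replicate-3-only and 43.4% in replicate-2-only regions, a difference of -3.35 points (-4.30 to -2.40), and the 3′ UTR share was 6.15% in replicate-3-only and 1.05% in replicate-2-only regions. At coding promoters the share with divergent coding starts within 500 bp was 16.5% in replicate-3-only and 48.6% in replicate-2-only summits. The difference was -32.0 points (-39.9 to -22.8). On X the shares were 8.88% (6.57 to 11.9%) in replicate-3-only and 13.4% (10.7 to 16.8%) in replicate-2-only regions. No interval of that difference was computed, and overlap of the 2 single intervals does not show that the shares are alike.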

How the data were processed

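Regions were deposited by the authors as lists per replicate, per pool of both replicates and per set passing the irreproducible discovery rate (IDR) procedure, on dm6 and dm3. Per the file records, 30000 peaks and background regions per list were made against a control alignment; not given in the sources used here were the peak caller, read aligner and cut-off of IDR. The authors deposited a signal and a −log10 q value for every region, and the other deposited column used was the summit offset in bases. The lists hold no read counts.

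The members and the 28 gene lists were chosen with earlier results of these data known. Nuclear regions were ranked by signal in each dm6 list. Positions count from 1. Gene models were those of Ensembl release 115, transposable elements removed, and bases were read from RefSeq's dm6 sequence. A summit was called promoter within 500 bp of any annotated start, and otherwise by the annotation under it. Of 425 list symbols 423 were found, 14 under a current name. Shares have 95% Wilson and differences of shares 95% Newcombe intervals; differences of mean G+C have normal 95% intervals. No p-value was computed. Named were the 15 strongest regions, the 10 genes with most summits, up to 4 genes per list, the 3 regions on each side of each threshold, and the sequences shown. Others are named as chosen after their values were seen. Computation used Python 3.11.15 with pandas 2.3.3, numpy 2.4.6 and scipy 1.17.1. The overlap, nearest-start and gene-assignment steps and the interval of a difference of shares were tested on simulated data. The calls of intron, UTR, exon and intergenic place were not tested in this way. Other list depths, overlaps, promoter distances, windows and gene assignments were tried as alternatives.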

Additional observations from a re-analysis of the deposited data

How the results depend on the processing

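Of 81 values under other settings, 54 stayed within the limits set for them, 24 moved and 3 turned in sign; for those below the cause was not tested unless stated. The number of replicate-3-only regions was 720 against the 2000 strongest replicate 2 regions, 261 against 8000, 73 against all, and 58 among the 1000 strongest of replicate 3; the genes with one were 673, 243, 72 and 57 in the same order, and 224 with summits within 1 kb of a start. With the dm3 lists the number was 436. The promoter share was 38.5% against the 2000 strongest replicate 2 regions, 19.8% with promoters of 250 bp and 47.4% with promoters of 1000 bp, which by construction take in fewer or more summits. The promoter difference from shared regions was -19.7 points against all replicate 2 regions, where the intron difference was 4.55 and the 3′ UTR difference 8.94 points; the 3′ UTR difference was 1.09 points in the 1000 strongest. The promoter, intron, 3′ UTR and X differences from shared regions kept their sign in the alternatives run, but the interval included 0 for intron against all replicate 2 regions (-5.83 to 16.2) and, in the 1000 strongest, for 3′ UTR (-0.52 to 8.51) and X (-14.0 to 3.72). Summit G+C was 32.9% in the 1000 strongest, 32.6% over 100 bp either side and 35.1% over the whole region. Its difference from shared regions was 1.82 points (0.085 to 3.55) in the 1000 strongest, 0.66 (0.047 to 1.27) and 1.09 (0.27 to 1.91) with 2000 and 8000 replicate 2 regions, 0.85 (0.16 to 1.55) with a stricter overlap of 50% of the region and 0.90 (0.19 to 1.61) with summits within 250 bp, and turned to -0.24 in the weaker 1000 of the 2000. It also turned to -0.87 (-1.40 to -0.35) over 100 bp either side and -1.84 (-2.32 to -1.37) over the whole region. Those windows by construction take in flanks whose G+C is lower than in shared regions. The promoter difference from replicate-2-only regions was -22.8, -36.5 and -41.0 points with 2000, 8000 and all regions of the other replicate, and -47.2 in the 1000 strongest. The 3′ UTR, X and replicate-2-only results were added after seeing the data. No paired analysis was possible because the 2 replicates form 1 group, and leaving out a replicate would end the rule, which needs both. Depth is unknown, so a region missing from replicate 2 is not shown to lack binding there.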
